A study of Mus musculus with 10 samples.

Results

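The genes described here are Myc and 33 nucleolar, ribosomal RNA processing and RNA polymerase I factors of the mouse. They were taken by symbol for their known roles, by a rule that uses no measured value, though with earlier results of these data known, and were matched to the gene identifiers of the deposited count table. All 34 members were among the 22731 genes of the table, and all 34 passed the filter on low counts that left 16344 genes for testing. The RNA came from fibroblasts of mice labelled C57B6, in a series on the pancreas. The cells were sorted as live cells without the leukocyte, epithelial and endothelial surface proteins CD45, Epcam and CD31 and with the fibroblast proteins Pdpn and Pdgfra. They were kept alone (monoculture, 4 libraries), with group 2 innate lymphoid cells (ILC2s, lymphocytes that release type 2 cytokines such as IL-13) of wild-type animals (WT coculture, 3 libraries), or with IL-13-deficient ILC2s (IL13KO coculture, 3 libraries). The fibroblasts were then sorted again for bulk RNA sequencing. All 10 libraries carry the same fibroblast label, and the knockout belongs to the added ILC2s. The labels used here do not state the allele behind IL13KO, the age or sex of the animals, the time in culture or whether libraries came from separate cultures, so the p-values measure the spread between these libraries, which may be technical. The WT columns of the table are numbered 1, 3 and 4, and those numbers are used here as names.

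A cell makes ribosomes in the nucleolus. RNA polymerase I transcribes a long precursor RNA there, small nucleolar ribonucleoproteins (snoRNPs) guide its chemical modification, and a series of assembly factors cut and fold it into the small and the large subunit. MYC is a transcription factor that pairs with MAX, binds the E-box CACGTG, and is known for raising the transcription of genes of this pathway when cells grow. Fibroblasts at rest make few ribosomes and raise their production when they are stimulated to grow.

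Most of the set was higher in fibroblasts kept with WT ILC2s than in fibroblasts kept alone, and most of it was also higher with WT than with IL13KO ILC2s. With WT ILC2s 26 of the 34 members were higher than in monoculture and none was lower (edgeR quasi-likelihood test, adjusted p below 0.05), where 32.8% of all genes tested were higher, 29.7% were lower and 62.5% were called in either direction. With IL13KO ILC2s 18 members were higher and 6 were lower than in monoculture, where 30.1% of all genes were higher, 27.3% were lower and 57.4% were called. Between the cocultures 22 members were higher with WT ILC2s and none was higher with IL13KO ILC2s, where 11.6% of all genes were higher, 11.7% were lower and 23.3% were called. The estimate was above 0 for all 34 members in that last comparison, from 0.05 to 1.08 on the log2 scale. The median log2 fold change over the members was 0.87 for WT coculture minus monoculture, 0.40 for IL13KO coculture minus monoculture and 0.53 for WT minus IL13KO coculture, where the medians over all genes tested were 0.015, 0.002 and -0.004. The comparisons of each coculture with monoculture share their 4 monoculture libraries and are not independent of each other.

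**Figure D1:**
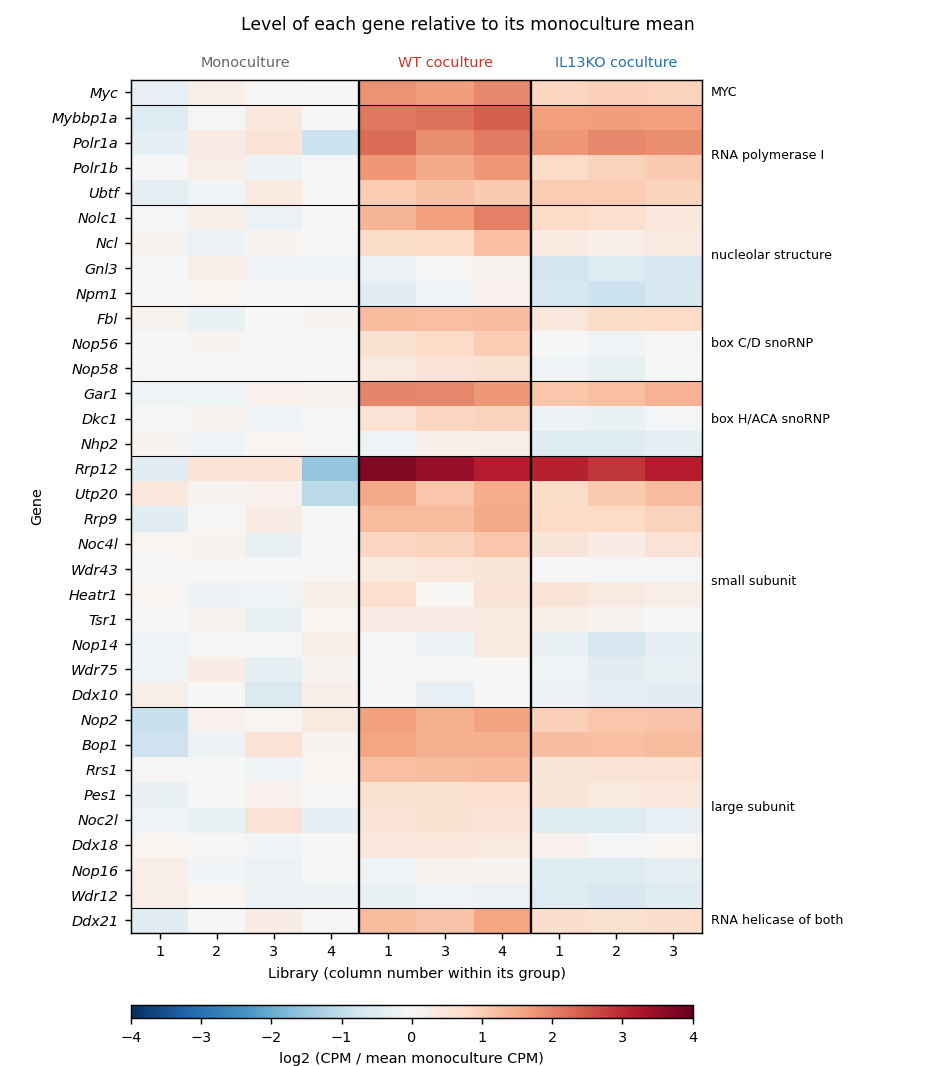
Level of each of the 34 genes (rows, grouped by role) in each of the 10 libraries (columns), as log2 of its counts per 1000000 counts of the library (CPM) over the gene's mean CPM in the 4 monocultures, where red is higher and blue is lower. Rrp12 is the reddest row in both cocultures. Npm1, Gnl3, Nhp2, Nop14, Nop16 and Wdr12, which were called lower there, are blue in the IL13KO cocultures, as are some members not called, such as Noc2l.

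Levels are given as CPM after TMM scaling, and per kilobase of exon where genes are compared with each other. The total counts per library were between 10710410 and 14366199 in monoculture, 18801744 and 22087459 in WT coculture and 17277432 and 17661229 in IL13KO coculture. A limit of 3 counts corresponded to 0.136 to 0.280 CPM, below the lowest member value of 0.633 CPM (Rrp12 in monoculture 4). Reads of Il13 itself numbered 30, 120 and 121 with WT ILC2s, and no monoculture or IL13KO coculture had any. The 8 fibroblast markers summed to 7355 to 10080 CPM in monoculture, 11180 to 15620 in WT coculture and 21830 to 27090 in IL13KO coculture, and each of them had reads in every group. They did not move together. Against monoculture 5 were higher and 2 lower with WT ILC2s (log2 fold changes -3.69 to 2.66) and 5 higher and 2 lower with IL13KO ILC2s (-1.44 to 3.44). In WT against IL13KO coculture 1 was higher and 3 were lower. Markers of other cells also moved with the groups: 10 leukocyte markers summed to 2.89 to 6.96 CPM in monoculture, 95.5 to 121 CPM in WT coculture and 14.4 to 22.4 CPM in IL13KO coculture. Most of that sum in the WT cocultures was Cd53, at 92.4 to 111.7 CPM, and Ptprc, which encodes CD45, had 6, 3 and 9 reads there. The 11 ILC2 markers summed to 6.08 to 10.97, 1221 to 1476 and 18.6 to 31.4 CPM, and 1 gene, Il1rl1, held 1184 to 1445 CPM of the WT sum. Ptprc, Laptm5, Cd48, Rac2, Il5, Il13, Klrg1, Il7r and Cd69 had no read in monoculture, and Cd48, Il13 and Il7r had none in IL13KO coculture. The 6 epithelial and endothelial markers in the table summed to at most 4.1 CPM. The design text gives the gate of the sort after culture as CD45+, unlike the first sort. The part of ILC2 RNA in the results below was not tested, and in bulk RNA a change in the makeup of the cells and a change in RNA per cell cannot be told apart.

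Promoter windows (250 bases before to 50 after the start, RefSeq, GRCm38.p6) were at hand for 28 of the 34 members. The E-box CACGTG, which reads the same on both strands, occurred in 6 of the 28 (21.43%), in 16 of 89 other ribosome biogenesis genes (17.98%), in 11.6% of the genes tested here and in 8.09% of all genes with a window. The 6 sequences are shown because MYC is 1 of the members and CACGTG is the site it is known to bind. Each is 30 bases long, 5′ to 3′ on the gene's strand, with the E-box in capitals:
Mybbp1a (chr11:72441347-72441376, + strand): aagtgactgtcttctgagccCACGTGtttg
Nop2 (chr6:125131811-125131840, + strand): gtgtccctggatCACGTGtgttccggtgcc
Pes1 (chr11:3963965-3963994, + strand): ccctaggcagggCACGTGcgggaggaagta
Tsr1 (chr11:74898092-74898121, + strand): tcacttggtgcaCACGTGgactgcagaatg
Utp20 (chr10:88826765-88826794, - strand): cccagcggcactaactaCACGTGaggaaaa
Wdr43 (chr17:71616220-71616249, + strand): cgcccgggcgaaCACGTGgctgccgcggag
In Nop2 the E-box began 60 bases before the annotated start. In the other 5 it began 2 (Pes1), 17 (Wdr43), 24 (Tsr1), 37 (Utp20) and 40 (Mybbp1a) bases after the start base, so only 1 of 28 members (3.57%) held it in the upstream part, where 9.80% of the genes tested here did. The variant CACGCG, searched on both strands, was in 9 of the 28 windows (32.1%, against 19.5% of genes tested here), the SP-type GC box GGGCGG in 22 (78.6% against 67.5%) and the ETS-type motif CCGGAAG in 8 (28.6% against 19.5%). These are matches of letters in a fixed window and describe no binding.

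Myc was higher in both cocultures than in monoculture, and highest in WT coculture. It is a single gene on chromosome 15 (61985391 to 61990374, + strand, GRCm38). Its level was 23.7, 35.3, 31.3 and 29.7 CPM in monocultures 1 to 4, 104.6, 96.1 and 114.8 CPM in WT cocultures 1, 3 and 4, and 54.4, 57.8 and 57.2 CPM in IL13KO cocultures 1 to 3. The 3 groups did not overlap: all IL13KO cocultures lay above all monocultures and below all WT cocultures. Myc was 3.50-fold higher in WT coculture than in monoculture (log2 fold change 1.81 ± 0.12 SE, adjusted p = 1.25e-07). It was 1.88-fold higher in IL13KO coculture than in monoculture (0.91 ± 0.12, adjusted p = 5.51e-05) and 1.86-fold higher in WT than in IL13KO coculture (0.90 ± 0.13, adjusted p = 0.000358). Per kilobase of exon its mean rose from 11.04 CPM in monoculture to 38.7 in WT and 20.8 in IL13KO coculture.

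The 4 RNA polymerase I members were all higher in both cocultures than in monoculture, and 2 of the 4 were higher in WT than in IL13KO coculture. Polr1a encodes the largest subunit of the polymerase. Its level was 3.97, 6.37, 7.28 and 2.81 CPM in monoculture, 24.2, 18.3 and 21.6 CPM in WT coculture and 16.9, 19.3 and 18.7 CPM in IL13KO coculture. The cocultures overlapped with each other and lay above every monoculture. Polr1a rose 4.21-fold with WT ILC2s (log2 2.07 ± 0.25, adjusted p = 1.48e-05) and 3.61-fold with IL13KO ILC2s (1.85 ± 0.25, adjusted p = 5.83e-05), and the 2 cocultures differed by 0.22 ± 0.25 (adjusted p = 0.575). Mybbp1a encodes a nucleolar protein that binds MYB and takes part in precursor transcription and processing. It was at 12.8, 17.3, 24.7 and 18.3 CPM in monoculture, 79.5, 85.0 and 95.2 CPM in WT coculture and 56.6, 57.7 and 57.6 CPM in IL13KO coculture. Here the 3 groups were separate. Its changes were 2.25 ± 0.17 (adjusted p = 2.23e-07) with WT ILC2s, 1.65 ± 0.17 (adjusted p = 5.59e-06) with IL13KO ILC2s and 0.60 ± 0.17 (adjusted p = 0.0231) between them. The call between the cocultures was lost without WT coculture 3 or 4 or any 1 of the 3 IL13KO cocultures (adjusted p 0.0511 to 0.0934).

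Polr1b, another large subunit, had the same order as Mybbp1a, with means of 6.64, 21.03 and 12.5 CPM in monoculture, WT and IL13KO coculture, and it was higher in WT than in IL13KO coculture by 0.75 ± 0.16 (adjusted p = 0.00469). Ubtf encodes the upstream binding factor that opens ribosomal DNA for the polymerase. Its level was 18.2, 22.1, 31.3 and 24.7 CPM in monoculture, 48.4, 54.5 and 50.2 CPM in WT coculture and 48.7, 48.9 and 44.3 CPM in IL13KO coculture. Both cocultures lay above every monoculture and overlapped with each other. The changes of Ubtf were 1.09 ± 0.15 (adjusted p = 4.22e-05), 0.98 ± 0.15 (adjusted p = 0.000144) and 0.11 ± 0.16 (adjusted p = 0.667). After a correction for GC content and transcript length the change of Ubtf was -0.02 (adjusted p = 0.877) with WT ILC2s and -0.31 (adjusted p = 0.0363) with IL13KO ILC2s. Polr1b was then at 0.175 (adjusted p = 0.404) with IL13KO ILC2s, while Polr1a and Mybbp1a were still called higher in both comparisons with smaller changes. With WT and IL13KO ILC2s these were 1.113 and 0.723 for Polr1a and 1.233 and 0.476 for Mybbp1a.

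Nucleolar structure divided into genes that rose and genes that did not. Nolc1, a chaperone of snoRNPs, was at 14.7, 18.1, 13.2 and 16.2 CPM in monoculture, 40.0, 48.2 and 63.0 CPM in WT coculture and 26.3, 24.0 and 21.03 CPM in IL13KO coculture. All 3 groups were separate. Its difference between the cocultures, 1.08 ± 0.18 (2.12-fold, adjusted p = 0.000773), was the largest among the members, beside 1.69 ± 0.17 (adjusted p = 2.26e-06) and 0.61 ± 0.17 (adjusted p = 0.00724) against monoculture with WT and IL13KO ILC2s. Corrected for GC content and transcript length, the change of Nolc1 with IL13KO ILC2s was -0.098 (adjusted p = 0.686). Nucleolin (Ncl), which binds the precursor RNA, went from a mean of 114.0 ± 12.6 CPM (SD, n = 4) to 216.5 ± 39.7 (n = 3) with WT and 141.4 ± 8.63 (n = 3) with IL13KO ILC2s. The rise of Ncl with IL13KO ILC2s (0.31 ± 0.13, adjusted p = 0.0478) was just inside the threshold and was lost without any 1 of monocultures 2 and 4, WT coculture 3 and the 3 IL13KO cocultures (adjusted p 0.0589 to 0.133), whereas its rise with WT ILC2s was 0.93 ± 0.12 (adjusted p = 3.24e-05).

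Npm1 encodes nucleophosmin, the most abundant member per kilobase in monoculture (142 CPM per kilobase). Its level was 378.2, 398.3, 377.6 and 359.8 CPM in monoculture, 285.5, 334.5 and 423.5 CPM in WT coculture and 232.4, 206.8 and 245.9 CPM in IL13KO coculture. The WT cocultures straddled the monocultures, and the IL13KO cocultures lay below both groups. Npm1 fell by 0.73 ± 0.12 with IL13KO ILC2s (adjusted p = 0.000262), the largest fall among the members. With WT ILC2s its change was -0.12 ± 0.12 (adjusted p = 0.395), but without WT coculture 4 it was -0.29 and passed the threshold (adjusted p = 0.0352). Between the cocultures Npm1 was 0.61 ± 0.13 higher with WT ILC2s (adjusted p = 0.00461). Gnl3 encodes nucleostemin, a nucleolar GTPase of dividing cells. It was at 48.8, 57.8, 44.3 and 44.0 CPM in monoculture, 41.5, 50.6 and 54.2 CPM in WT coculture and 29.2, 33.8 and 30.5 CPM in IL13KO coculture, so that only the IL13KO group stood apart. It fell by 0.65 ± 0.13 with IL13KO ILC2s (adjusted p = 0.00111), was at -0.001 ± 0.13 with WT ILC2s (adjusted p = 0.997) and was 0.65 ± 0.14 higher in WT than in IL13KO coculture (adjusted p = 0.00506).

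**Figure D2:**
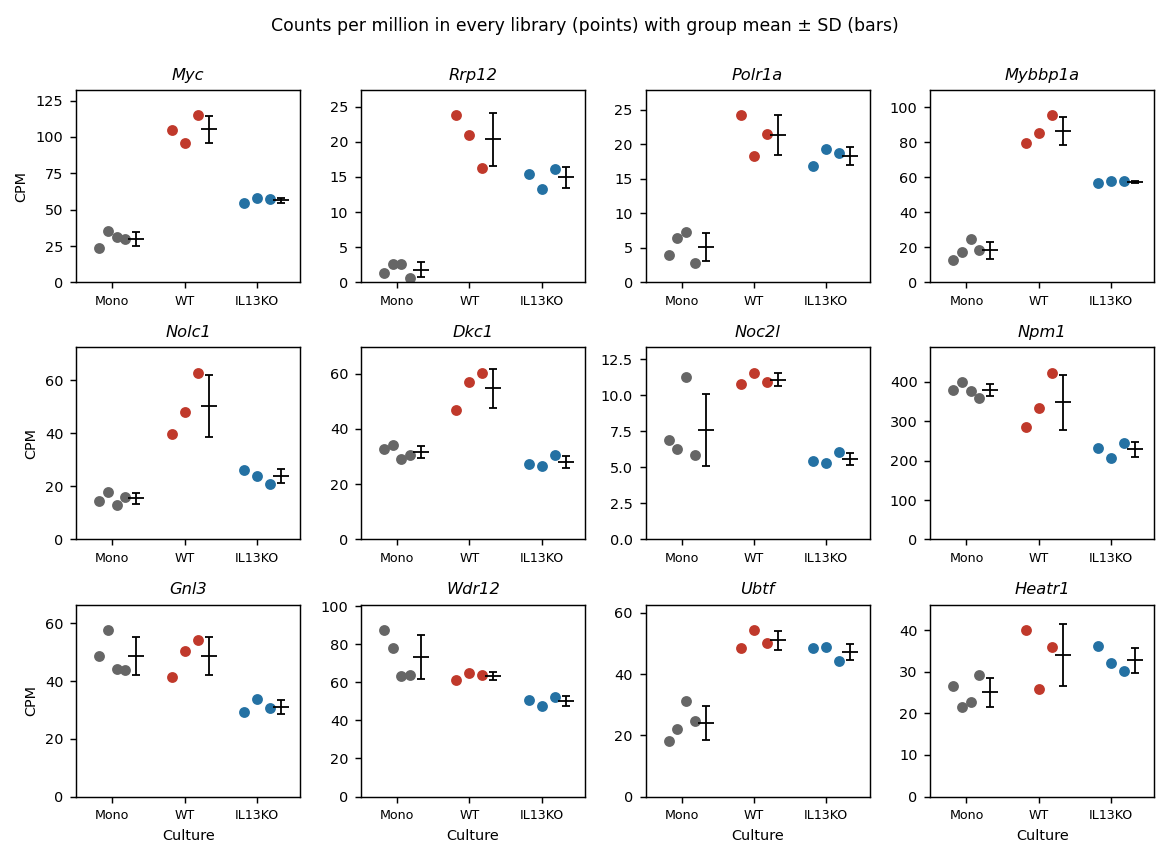
CPM (vertical axes, each from 0) of 12 members in every monoculture (grey), WT coculture (red) and IL13KO coculture (blue), with bars for the group mean and SD. Myc, Mybbp1a and Nolc1 form 3 separate steps, while for Npm1 and Gnl3 the IL13KO cocultures lie below all other libraries.

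All 6 snoRNP members were higher in WT than in IL13KO coculture, by 0.56 to 0.96 on the log2 scale. Of the box C/D proteins, which methylate ribosomal RNA, the methyltransferase fibrillarin (Fbl) rose with both kinds of ILC2 (1.23 ± 0.12 and 0.66 ± 0.12, adjusted p = 2.87e-06 and 0.000586). Corrected for GC content and transcript length, the change of Fbl with IL13KO ILC2s was 0.306 (adjusted p = 0.0735). The core proteins Nop56 and Nop58 rose with WT ILC2s (0.81 ± 0.11, adjusted p = 2.48e-05, and 0.52 ± 0.09, adjusted p = 0.00031) and were at -0.02 ± 0.11 and -0.16 ± 0.09 with IL13KO ILC2s (adjusted p = 0.86 and 0.154). Nop56 went from 94.9 ± 5.56 CPM (SD, n = 4) in monoculture to 166.1 ± 24.0 (n = 3) in WT and 93.3 ± 6.12 (n = 3) in IL13KO coculture.

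The box H/ACA proteins convert uridine to pseudouridine in ribosomal RNA, and their enzyme is dyskerin (Dkc1). Dkc1 was at 32.7, 34.1, 29.0 and 30.6 CPM in monoculture, 46.7, 56.9 and 60.4 CPM in WT coculture and 27.3, 26.4 and 30.5 CPM in IL13KO coculture. The WT cocultures lay above all other libraries, and the IL13KO cocultures overlapped with the monocultures. Its changes were 0.79 ± 0.12 (adjusted p = 7.38e-05) with WT ILC2s, -0.17 ± 0.12 (adjusted p = 0.24) with IL13KO ILC2s and 0.96 ± 0.13 (adjusted p = 0.00017) between the cocultures. The core proteins of the same particle differed from one another against monoculture. Gar1 rose 3.67-fold with WT and 2.36-fold with IL13KO ILC2s (1.88 ± 0.14 and 1.24 ± 0.14, adjusted p = 1.84e-07 and 1.06e-05), and Nhp2 was at 0.11 ± 0.11 (adjusted p = 0.414) with WT ILC2s and fell by 0.45 ± 0.11 with IL13KO ILC2s (adjusted p = 0.00449). In level per kilobase the order was the reverse, with Nhp2 at 75.9 and Gar1 at 6.22 CPM per kilobase in monoculture.

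Of the 10 small subunit factors 7 were higher with WT ILC2s than in monoculture, and with IL13KO ILC2s 4 were higher and 1 was lower. Rrp12, a factor in the export of precursor particles from the nucleus, held the largest rise of all members in both comparisons with monoculture. It was at 1.35, 2.67, 2.67 and 0.633 CPM in monoculture, 23.7, 21.01 and 16.3 CPM in WT coculture and 15.4, 13.2 and 16.2 CPM in IL13KO coculture. Both cocultures lay far above every monoculture, and WT coculture 4 was close to IL13KO coculture 3. Rrp12 was 11.2-fold higher with WT ILC2s (3.49 ± 0.33, adjusted p = 1.54e-06) and 8.23-fold higher with IL13KO ILC2s (3.04 ± 0.33, adjusted p = 9.36e-06), and the cocultures differed by 0.45 ± 0.30 (adjusted p = 0.309). Its level in monoculture was also the lowest per kilobase among the members (0.422 CPM per kilobase, with Polr1a at 0.430 and Utp20 at 0.566), and it rose to 4.69 in WT and 3.44 in IL13KO coculture.

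The U3 snoRNP protein Rrp9, the small subunit scaffold Utp20 and the nucleolar complex protein Noc4l were also higher with both kinds of ILC2. Their changes with WT ILC2s were 1.36 ± 0.15 (Rrp9, adjusted p = 5.75e-06), 1.39 ± 0.27 (Utp20, adjusted p = 0.000598) and 0.96 ± 0.14 (Noc4l, adjusted p = 4.91e-05). With IL13KO ILC2s they were 0.84 ± 0.15 (Rrp9, adjusted p = 0.000392), 1.02 ± 0.27 (Utp20, adjusted p = 0.00615) and 0.45 ± 0.14 (Noc4l, adjusted p = 0.0129). Without IL13KO coculture 3 the last of these was 0.389 and missed the threshold (adjusted p = 0.0603). Corrected for GC content and length, none of these genes was called with IL13KO ILC2s. The changes were then 0.044 (Rrp9, adjusted p = 0.772), 0.541 (Utp20, adjusted p = 0.101) and -0.179 (Noc4l, adjusted p = 0.402). Wdr43, a component of the UTP complex that binds the precursor first, rose with WT ILC2s by 0.45 ± 0.08 (adjusted p = 0.000343) and was at -0.03 ± 0.08 with IL13KO ILC2s (adjusted p = 0.762). Wdr43, Nop14, Rrp9 and Noc4l were higher in WT than in IL13KO coculture, by 0.48 to 0.54.

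Tsr1, which acts late in the maturation of the small subunit, was at 51.8, 55.9, 41.5 and 54.1 CPM in monoculture, 64.0, 63.2 and 64.5 CPM in WT coculture and 60.4, 56.2 and 51.2 CPM in IL13KO coculture. Its WT cocultures lay above all monocultures by a small step of 0.33 ± 0.11 (adjusted p = 0.021), which missed the threshold without WT coculture 3 (adjusted p = 0.0563) or 4 (adjusted p = 0.0527). The other changes of Tsr1 were 0.14 ± 0.11 with IL13KO ILC2s (adjusted p = 0.316) and 0.19 ± 0.12 between the cocultures (adjusted p = 0.277). Of its exon bases 32.3% also belong to Srr on the opposite strand, and the strand setting of the counting is not given in the sources used here. Heatr1, a scaffold of the small subunit processome, was at 26.6, 21.6, 22.8 and 29.3 CPM in monoculture, 40.2, 25.8 and 36.1 CPM in WT coculture and 36.1, 32.2 and 30.2 CPM in IL13KO coculture. WT coculture 3 fell among the monocultures. Heatr1 changed by 0.44 ± 0.16 with WT ILC2s (adjusted p = 0.0304), 0.39 ± 0.16 with IL13KO ILC2s (adjusted p = 0.0557) and 0.05 ± 0.17 between them (adjusted p = 0.867), the smallest difference between the cocultures in the set. The first of these calls was lost without monoculture 2 or 3 or WT coculture 1 or 4 (adjusted p 0.0607 to 0.161). The second was gained without monoculture 4 or WT coculture 1 or 3 (adjusted p 0.0343 to 0.0491).

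The helicase gene Ddx10 was at 22.4, 18.9, 12.7 and 21.9 CPM in monoculture, 17.8, 15.2 and 18.7 CPM in WT coculture and 16.3, 14.8 and 13.8 CPM in IL13KO coculture. All 3 groups overlapped. Its changes were -0.14 ± 0.19 (adjusted p = 0.526), -0.34 ± 0.19 (adjusted p = 0.131) and 0.20 ± 0.20 (adjusted p = 0.501). Wdr75, a partner of Wdr43 in early assembly, was likewise not called in any comparison of the fit over all 10 libraries (0.004 ± 0.14, -0.29 ± 0.14 and 0.29 ± 0.15, adjusted p = 0.981, 0.103 and 0.191). Without monoculture 3, the lowest monoculture for both genes, Ddx10 (-0.491, adjusted p = 0.0104) and Wdr75 (-0.388, adjusted p = 0.0189) passed the threshold as lower with IL13KO ILC2s. Nop14, also an early factor, was at 0.10 ± 0.17 with WT ILC2s (adjusted p = 0.607) and fell by 0.44 ± 0.17 with IL13KO ILC2s (adjusted p = 0.0413). The fall of Nop14 was not called without monoculture 2 or 4, WT coculture 1 or IL13KO coculture 2 or 3 (adjusted p 0.0526 to 0.164).

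Of the 8 large subunit factors 6 rose with WT ILC2s, and with IL13KO ILC2s 4 rose and 2 fell. Pes1, Bop1 and Wdr12 encode the 3 proteins of the PeBoW complex, which processes the precursor of the large subunit. They did not move together. Bop1 was 2.78-fold higher with WT and 2.36-fold higher with IL13KO ILC2s (1.47 ± 0.22 and 1.24 ± 0.22, adjusted p = 8.59e-05 and 0.000445), and Pes1 was 1.55-fold and 1.34-fold higher (0.63 ± 0.11 and 0.42 ± 0.11, adjusted p = 0.000181 and 0.00426). Corrected for GC content and length, the changes with WT ILC2s were 0.441 for Bop1 (adjusted p = 0.0135) and 0.324 for Pes1 (adjusted p = 0.00489), and with IL13KO ILC2s neither was called (Bop1 0.033, adjusted p = 0.861, and Pes1 0.088, adjusted p = 0.419). Wdr12 was at 87.8, 77.9, 63.3 and 64.1 CPM in monoculture, 61.2, 65.1 and 63.7 CPM in WT coculture and 51.0, 47.4 and 52.1 CPM in IL13KO coculture. Its WT cocultures sat beside the lower monocultures, and its IL13KO cocultures lay below all other libraries. Wdr12 changed by -0.21 ± 0.12 with WT ILC2s (adjusted p = 0.139), fell by 0.55 ± 0.12 with IL13KO ILC2s (adjusted p = 0.00181) and differed by 0.34 ± 0.13 between the cocultures (adjusted p = 0.0736). That difference passed the threshold without monoculture 1 (adjusted p = 0.0253) or 3 (adjusted p = 0.0495). Under upper-quartile scaling the change with WT ILC2s was -0.333 and was called lower (adjusted p = 0.03). Stretches of Wdr12 transcripts are at least 95% identical over 200 bases or more to transcripts of 6 other genes, so its count could be split among them.

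Rrs1, which brings the 5S particle to the large subunit, had 3 separate groups with a small spread within each. It was at 103.7 ± 7.54 CPM (SD, n = 4) in monoculture, 248.9 ± 6.82 (n = 3) in WT and 149.6 ± 5.04 (n = 3) in IL13KO coculture, with changes of 1.26 ± 0.08 (adjusted p = 9.89e-08), 0.53 ± 0.08 (adjusted p = 0.000173) and 0.73 ± 0.09 (adjusted p = 9.49e-05). The RNA methyltransferase gene Nop2 rose 2.95-fold with WT and 2.09-fold with IL13KO ILC2s (1.56 ± 0.21 and 1.06 ± 0.21, adjusted p = 2.97e-05 and 0.000818). Corrected for GC content and length, the changes with IL13KO ILC2s were 0.054 for Rrs1 (adjusted p = 0.707) and 0.257 for Nop2 (adjusted p = 0.214). Between the cocultures Nop2 was at 0.50 ± 0.22 (adjusted p = 0.118), and without monoculture 1, where it was lowest at 10.7 CPM, that difference was called (0.501, adjusted p = 0.00423). Ddx18, a helicase, rose with WT ILC2s by 0.41 ± 0.10 (adjusted p = 0.00234) and was at 0.06 ± 0.10 with IL13KO ILC2s (adjusted p = 0.599). Nop16 was at 0.03 ± 0.12 with WT ILC2s (adjusted p = 0.836) and fell by 0.44 ± 0.13 with IL13KO ILC2s (adjusted p = 0.00929). The helicase Ddx21, which acts for both subunits and at RNA polymerase I, was 2.52-fold higher with WT and 1.59-fold higher with IL13KO ILC2s (1.34 ± 0.15 and 0.67 ± 0.16, adjusted p = 9.3e-06 and 0.00259).

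Noc2l, a nucleolar complex protein that also binds p53, was at 6.93, 6.30, 11.25 and 5.84 CPM in monoculture, 10.8, 11.6 and 10.9 CPM in WT coculture and 5.44, 5.29 and 6.07 CPM in IL13KO coculture. Monoculture 3 lay among the WT cocultures, and the cocultures did not overlap with each other. Noc2l was 0.98 ± 0.23 higher in WT than in IL13KO coculture (adjusted p = 0.00807). Its rise with WT ILC2s, 0.56 ± 0.21 (adjusted p = 0.0364), was lost without any 1 of monocultures 1, 2 and 4, the 3 WT cocultures and IL13KO cocultures 1 and 2 (adjusted p 0.0504 to 0.104). Corrected for GC content and length it was -0.376 (adjusted p = 0.0984). The change with IL13KO ILC2s was -0.43 ± 0.22 (adjusted p = 0.116). Of the exon bases of Noc2l 20.9% are shared with Samd11 on the opposite strand.

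**Figure D3:**
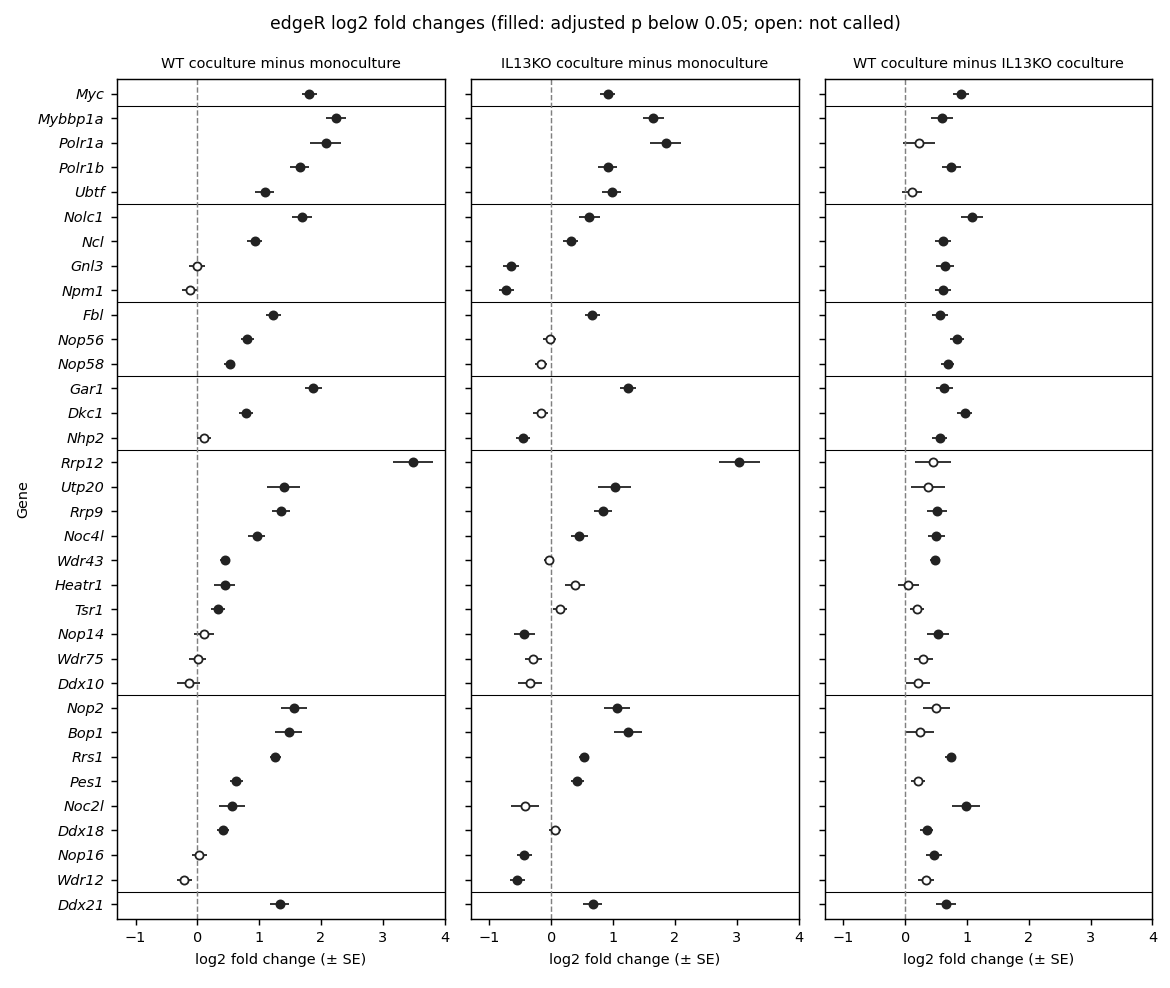
edgeR log2 fold changes (horizontal axes, points) with their SE (bars) of the 34 genes in the 3 comparisons, where filled points had an adjusted p below 0.05. In the right panel all 34 points lie above 0, and in the middle panel the 6 filled points below 0 are Npm1, Gnl3, Nhp2, Nop14, Nop16 and Wdr12.

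Set side by side, the calls of each coculture against monoculture placed the members in 4 classes. In 18 genes both cocultures were called higher, and 11 of these were called higher again in WT than in IL13KO coculture (Myc, Polr1b, Mybbp1a, Ncl, Nolc1, Fbl, Gar1, Rrp9, Noc4l, Rrs1 and Ddx21). For the other 7 (Polr1a, Ubtf, Utp20, Rrp12, Nop2, Bop1 and Pes1) the difference between the cocultures did not pass the threshold, with estimates of 0.11 to 0.50, which does not show that the cocultures were alike. In 8 genes the call was made with WT ILC2s and not with IL13KO ILC2s, and the direct comparison called 6 of the 8 higher in WT coculture (Nop56, Nop58, Dkc1, Wdr43, Ddx18 and Noc2l, but not Heatr1 and Tsr1). In 6 genes the level with WT ILC2s was not called different from monoculture and the level with IL13KO ILC2s was lower, and 5 of the 6 were higher in WT coculture (Npm1, Gnl3, Nhp2, Nop14 and Nop16, but not Wdr12). Ddx10 and Wdr75 were called in neither. None of the 22 members called between the cocultures had overlapping groups. Neither this nor the 4 classes was counted over all genes, so these counts have no share to be set against. The classes hold for TMM scaling only. After the correction for GC content and transcript length, 6 members were called higher and 9 lower with IL13KO ILC2s than in monoculture.

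Which members were called between the cocultures rested in part on single libraries. Leaving out 1 library at a time, 15 to 24 members were called higher in WT than in IL13KO coculture, with 15 after WT coculture 4 was left out. Over all genes the calls in either direction moved as well, from 3810 to between 2360 and 4805, with 2555 without WT coculture 4. Of the 22 members called, 15 kept the call each time, and kept calls were not counted over all genes. The 7 that were lost at least once were Mybbp1a, Nop14, Nop16, Rrp9, Noc4l, Ddx18 and Ddx21. Of these Ddx21 (0.67 ± 0.16, adjusted p = 0.0107) was lost only without WT coculture 4 (0.531, adjusted p = 0.0583). Rrp9 (0.52 ± 0.16, adjusted p = 0.03) was lost without WT coculture 4 or any IL13KO coculture (adjusted p 0.0598 to 0.122). Ddx18 (0.35 ± 0.10, adjusted p = 0.0267) was lost without any WT coculture or IL13KO coculture 2 or 3 (adjusted p 0.051 to 0.132). Noc4l (0.51 ± 0.14, adjusted p = 0.0224) was lost without WT coculture 3 or 4 or IL13KO coculture 1 or 2 (adjusted p 0.0511 to 0.11). The same 4 libraries decided Nop16 (0.47 ± 0.13, adjusted p = 0.0213, and 0.0747 to 0.0814 without 1 of them). Nop14 (0.54 ± 0.18, adjusted p = 0.0435) was lost without monoculture 2, WT coculture 1 or 4 or any IL13KO coculture (adjusted p 0.0524 to 0.199). Calls were also gained when only the 2 cocultures were fitted. Rrp12 (0.456, adjusted p = 0.0369), Nop2 (0.508, adjusted p = 0.00258), Wdr12 (0.344, adjusted p = 0.0112) and Wdr75 (0.3, adjusted p = 0.0395) were then higher in WT coculture. Over all genes 5854 were called in that fit, in place of 3810.

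In summed level the set was highest in the WT cocultures. The 34 members added up to 1697, 1736, 1672 and 1690 CPM in monoculture, 2439, 2567 and 2871 CPM in WT coculture and 1796, 1714 and 1835 CPM in IL13KO coculture. The IL13KO cocultures overlapped with the monocultures in this sum. Npm1, which fell with IL13KO ILC2s, alone had a mean of 378.5 CPM in monoculture. By role, the RNA polymerase I members went from 54.1 ± 11.4 CPM (SD, n = 4) to 180.0 ± 7.84 (n = 3) with WT and 135.4 ± 2.59 (n = 3) with IL13KO ILC2s. The 4 genes of nucleolar structure went from 556.7 ± 18.4 to 663.4 ± 126 and 424.7 ± 25.0 CPM.

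GC content differed between members by their call against monoculture. The exons of the 18 members that were higher with IL13KO ILC2s had a median GC content of 53.5%, those of the 6 lower members 47.3% and those of the 10 members not called 45.7%, where the median over the genes tested was 49.6%. After a correction of every library for its dependence on GC content and transcript length, 15 members were called against monoculture with IL13KO ILC2s, 6 higher and 9 lower, in place of 18 and 6, and the median over the members was 0.039. Over all 16344 genes that comparison then had 3027 higher and 4990 lower, in place of 4927 and 4457. Among all genes called in it the share that was higher went from 52.5% to 37.8%. The 6 that were higher under both scalings were Myc (0.439, adjusted p = 0.00343), Mybbp1a (0.476, adjusted p = 0.00759), Polr1a (0.723, adjusted p = 0.0144), Gar1 (0.932, adjusted p = 3.33e-05), Rrp12 (1.58, adjusted p = 0.000469) and Ddx21 (0.444, adjusted p = 0.0216). Besides Ubtf, 11 members lost their call as higher with IL13KO ILC2s: Polr1b (0.175), Ncl (0.216), Nolc1 (-0.098), Fbl (0.306), Utp20 (0.541), Rrp9 (0.044), Noc4l (-0.179), Nop2 (0.257), Bop1 (0.033), Pes1 (0.088) and Rrs1 (0.054), with adjusted p of 0.0735 to 0.861. Npm1, Gnl3, Nhp2, Nop14, Nop16 and Wdr12 were lower under both, and Nop56, Noc2l and Ubtf were lower only after the correction. With WT ILC2s 21 members were higher and none was lower after the correction, which ended the calls of Ubtf, Noc2l, Noc4l (0.403, adjusted p = 0.0504), Heatr1 (0.063, adjusted p = 0.735) and Tsr1 (0.232, adjusted p = 0.0674), and between the cocultures 25 were higher and none was lower. Over all genes 4123 were then higher and 5526 lower with WT ILC2s, and 2352 higher and 1968 lower between the cocultures. Rrp12 with WT ILC2s was at 2.22 after the correction, in place of 3.49. Upper-quartile scaling moved the median over all genes in the comparisons with monoculture to -0.106 (WT) and -0.102 (IL13KO) and gave 23 members higher and 1 lower with WT ILC2s and 17 higher and 8 lower with IL13KO ILC2s. Over all genes that scaling gave 4821 higher and 5636 lower with WT ILC2s and 4490 higher and 5263 lower with IL13KO ILC2s.

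**Figure D4:**
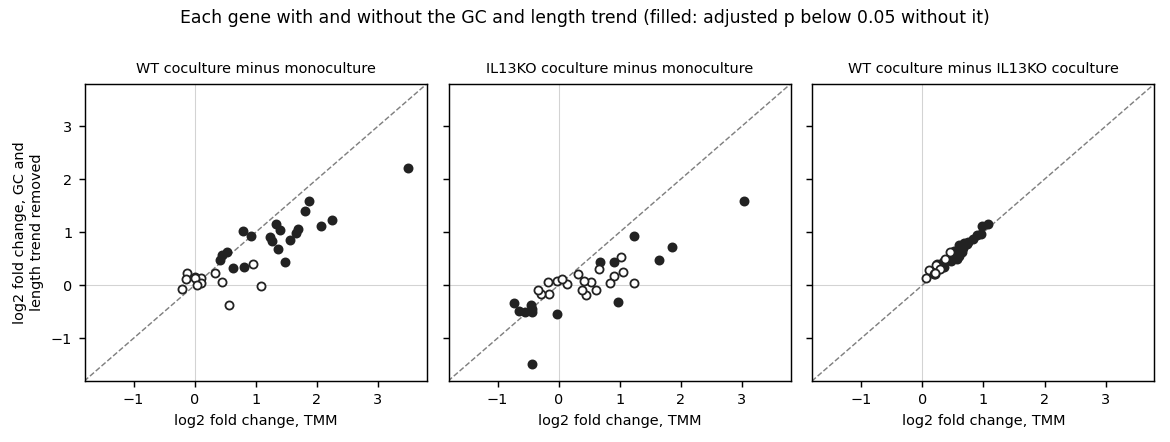
log2 fold change of each of the 34 genes after TMM scaling (horizontal axes) and after correction for GC content and transcript length (vertical axes), where the dashed line marks equal values and filled points had an adjusted p below 0.05 after the correction. Points between the cocultures stay near the line, and many points of IL13KO coculture minus monoculture drop to about 0.

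The rest of the pathway was taken as 107 further ribosome biogenesis genes, all of which passed the filter. Against monoculture 48 of the 107 were higher and 20 were lower with WT ILC2s (median log2 fold change 0.23), and 30 were higher and 41 were lower with IL13KO ILC2s (median -0.16). Between the cocultures 37 were higher and 1 was lower with WT ILC2s (median 0.29). Corrected for GC content and length, 35 were higher and 24 lower against monoculture with WT ILC2s (median 0.09). With IL13KO ILC2s 18 were then higher and 50 lower (median -0.294). Between the cocultures 48 were then higher and 2 lower with WT ILC2s (median 0.36). The members thus had larger medians than the rest of the pathway in all 3 comparisons, and the difference between the sets was not tested. Among the other RNA polymerase I genes (9 tested) 2 were higher and 3 lower with WT ILC2s and 1 was higher and 6 lower with IL13KO ILC2s. Polr1c, a subunit that polymerases I and III share, fell by 0.40 ± 0.10 with WT ILC2s (adjusted p = 0.00318) and by 0.68 ± 0.10 with IL13KO ILC2s (adjusted p = 8.31e-05). Of the basal factors beside UBTF, Taf1b fell by 0.59 ± 0.13 (adjusted p = 0.0012) and Taf1c was higher by 1.36 ± 0.43 with WT ILC2s (adjusted p = 0.0147). Between the cocultures the subunit genes Polr1d (0.44 ± 0.10, adjusted p = 0.00831) and Polr1e (0.56 ± 0.16, adjusted p = 0.0262) and the factor Taf1a (0.98 ± 0.31, adjusted p = 0.035) were higher with WT ILC2s.

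Of 40 other small subunit genes 20 were higher and 7 lower with WT ILC2s, 15 higher and 14 lower with IL13KO ILC2s, and 10 higher and none lower in WT than in IL13KO coculture. Tcof1, which encodes treacle, a partner of RNA polymerase I in the nucleolus, went from a mean of 2.78 CPM in monoculture to 33.4 in WT and 19.5 in IL13KO coculture (3.61 ± 0.26 with WT ILC2s, adjusted p = 1.83e-07). Bysl (1.52 ± 0.12, adjusted p = 5.15e-07) and the helicase Ddx49 (1.59 ± 0.15, adjusted p = 1.33e-06) also rose with WT ILC2s. Imp4 (0.46 ± 0.10, adjusted p = 0.00576), Mphosph10 (0.59 ± 0.13, adjusted p = 0.00651) and Emg1 (0.44 ± 0.11, adjusted p = 0.0106) were higher in WT than in IL13KO coculture. Imp4 and Mphosph10 form 1 complex with Imp3 and the U3 snoRNA, and Imp3 did not move with them. It fell by 0.52 ± 0.15 with WT ILC2s (adjusted p = 0.00792) and by 0.68 ± 0.15 with IL13KO ILC2s (adjusted p = 0.00176). Between the cocultures Imp3 was at 0.16 ± 0.16 (adjusted p = 0.506).

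Of 47 other large subunit genes 20 were higher and 8 lower with WT ILC2s, 13 higher and 18 lower with IL13KO ILC2s, and 20 higher and none lower in WT than in IL13KO coculture. Pelp1 rose with both kinds of ILC2 (3.64 ± 0.29 and 3.74 ± 0.29, adjusted p = 4.13e-07 and 9.21e-07), the kinase gene Nol9 rose by 2.26 ± 0.19 with WT ILC2s (adjusted p = 7.97e-07), and Nsa2 fell by 1.16 ± 0.10 (adjusted p = 1.18e-06). Eif6, which keeps the large subunit from joining too early, was 0.65 ± 0.09 higher in WT than in IL13KO coculture (adjusted p = 0.000308). The assembly factors Ebna1bp2 (0.70 ± 0.11, adjusted p = 0.000487) and Mrto4 (0.72 ± 0.12, adjusted p = 0.000779) were higher there too. Of 11 other snoRNP genes 6 were higher and 2 lower with WT ILC2s. Ruvbl2, a helper of box C/D assembly, rose by 1.16 ± 0.11 with WT ILC2s (adjusted p = 2.22e-06) and was 1.03 ± 0.12 higher in WT than in IL13KO coculture (adjusted p = 7.26e-05), and its partner Ruvbl1 was 0.52 ± 0.11 higher there (adjusted p = 0.00397), as was Znhit3 (0.62 ± 0.17, adjusted p = 0.0197). The H/ACA assembly factor Naf1 went the other way between the cocultures: it rose by 2.01 ± 0.21 with WT and 2.64 ± 0.21 with IL13KO ILC2s and was 0.64 ± 0.21 lower in WT than in IL13KO coculture (adjusted p = 0.041). Nop10, the remaining core H/ACA protein, fell by 0.72 ± 0.09 with WT ILC2s (adjusted p = 2.65e-05).

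Against monoculture most genes of cytosolic ribosomal proteins were lower in both cocultures, and between the cocultures those that were called were higher with WT ILC2s. Of 83 tested 1 was higher and 61 were lower with WT ILC2s (median -0.43), none was higher and 76 were lower with IL13KO ILC2s (median -0.74), and 35 were higher and none was lower in WT than in IL13KO coculture (median 0.30). The 84 genes in the table added up to 32170 to 34460 CPM in monoculture, 20830 to 26850 in WT coculture and 19240 to 20950 in IL13KO coculture. Their fall was called for 57 of 83 genes with WT and 77 of 83 with IL13KO ILC2s after the correction for GC content and length.

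**Figure D5:**
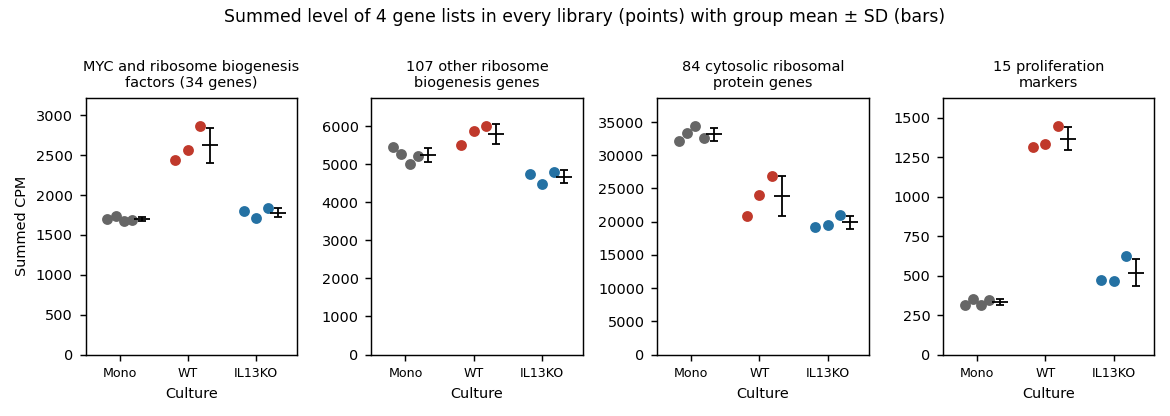
Summed CPM (vertical axes, from 0) of 4 gene lists in every library, with bars for the group mean and SD. The members and the proliferation markers are highest in the 3 WT cocultures, and the ribosomal protein genes are highest in the 4 monocultures.

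MYC acts in a network of partners and rivals for MAX. Of 15 listed genes of this network and of MYC turnover 13 passed the filter. With WT ILC2s 8 were higher and 2 lower, with IL13KO ILC2s 7 were higher and 2 lower, and between the cocultures only Mxd3 was called. Max rose by 1.18 ± 0.17 with WT (adjusted p = 4.47e-05) and 1.195 ± 0.165 with IL13KO ILC2s (adjusted p = 6.23e-05), and the cocultures differed by -0.01 ± 0.18 (adjusted p = 0.974). Thus Myc differed between the cocultures and no difference was called for its partner Max. Mxd3, which competes with MYC for MAX, rose by 1.43 ± 0.16 with WT ILC2s (adjusted p = 5.64e-06) and was 1.08 ± 0.17 higher in WT than in IL13KO coculture (adjusted p = 0.00055). Mxd4, of the same family, rose by 0.75 ± 0.12 with WT ILC2s (adjusted p = 0.000101) and was at -0.30 ± 0.12 between the cocultures (adjusted p = 0.0976). Mycl had a mean of 0.0617 CPM in monoculture, 0.941 in WT and 0.397 in IL13KO coculture. Its monoculture mean was below the limit of 3 counts there (0.209 to 0.280 CPM), so no size of change is given. Corrected for GC content and length, this list had 5 higher and 4 lower genes with WT ILC2s.

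Of 35 textbook targets of MYC outside the nucleolus, which encode enzymes of nucleotide, polyamine and one-carbon metabolism, translation factors and chaperones among others, 24 were higher and 2 lower with WT ILC2s. With IL13KO ILC2s 14 were higher and 9 lower, and between the cocultures 24 were higher and 1 was lower with WT ILC2s, with medians of 0.54, 0.06 and 0.52. Tfrc, the transferrin receptor, went from a mean of 7.12 CPM in monoculture to 60.0 in WT and 15.5 in IL13KO coculture and was 1.95 ± 0.19 higher in WT than in IL13KO coculture (adjusted p = 1.51e-05). The folate enzyme genes Shmt2 (2.73 ± 0.19, adjusted p = 1.29e-07) and Mthfd1 (2.12 ± 0.13, adjusted p = 6.59e-08) rose with WT ILC2s. Spermidine synthase (Srm, 0.95 ± 0.12, adjusted p = 0.000124) and the nuclear transport GTPase Ran (0.67 ± 0.11, adjusted p = 0.000605) were higher in WT than in IL13KO coculture.

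Markers of dividing cells were, like the set, mostly higher in WT coculture than in monoculture or IL13KO coculture. With IL13KO ILC2s against monoculture their median log2 fold change was 0.896, where that of the members was 0.404. Corrected for GC content and length, these medians were 0.902 and 0.039. Of 15 proliferation genes 14 were higher and none lower with WT ILC2s, 13 were higher and 1 was lower with IL13KO ILC2s, and all 15 were higher in WT than in IL13KO coculture. Their sum was 313 to 353 CPM in monoculture, 1316 to 1450 in WT coculture and 467 to 621 in IL13KO coculture. Their part in the levels of Myc and the ribosome biogenesis factors was not tested.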

How the data were processed

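Bulk RNA of 10 fibroblast libraries was sequenced as paired reads of 50 nt, per the labels' protocols. The submitters' processing notes name the build GRCm38.p6 and, without their roles, Salmon 1.6.0, STAR 2.7.7a, DESeq2, Picard, Trimmomatic 0.39 and FastQC 0.11.9, and the strand setting of the counting is not given in the sources used here. The authors deposited raw counts for 22731 genes and a table of size-factor normalised counts, which was not used. The deposited counts were fitted with edgeR 4.0.16 (R 4.3.3; TMM scaling, filterByExpr, 1 coefficient per group over all 10 libraries), and quasi-likelihood p-values were adjusted by Benjamini-Hochberg over the 16344 genes tested and called below 0.05. Log2 fold changes are the fitted values, with SE from the F statistic. A prior count of 2 was set for log2 CPM values, as used for GC and length trends and library correlations, not for the fit. The fit was also run on simulated counts with few genes changed, in WT coculture only, and with no GC or length trend. That setting differs from these data, so nothing is concluded from it here. DESeq2 1.42.0, limma 3.58.1 (voom), other scalings and filters, a replicate block, libraries thinned to equal depth, a loess removal of GC and length trends (span 0.4) and leaving out each library were the alternatives. Limits from a count of 0 (3 counts) cover counting error only. Gene models came from GENCODE M21 (GRCm38), which matched 22647 of the gene identifiers, and promoter windows from RefSeq. Near-identical transcripts (at least 95% over 200 bases) were found by BLAST for 8 members. The members and all gene lists were chosen with earlier results of these data known. Values in every library are given for Myc and for the 3 members with the highest and the 3 with the lowest log2 fold change in each comparison. In each other pathway list up to 3 genes with the smallest adjusted p in WT coculture minus monoculture and up to 3 in WT minus IL13KO coculture were named. Imp3 was added as a partner of Imp4 and Mphosph10. The ribosomal protein genes are given by counts.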

Additional observations from a re-analysis of the deposited data

How the results depend on the processing

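The members' median stayed above 0 in each comparison under every alternative run. With the GC and length trend removed, 15 members were called in IL13KO coculture minus monoculture (24 as reported), the members' median was 0.516 in WT coculture minus monoculture (0.867 as reported) and 0.039 in IL13KO coculture minus monoculture (0.404 as reported), and the summed CPM of the members was 1769 in monoculture and 1661 in IL13KO coculture (1699 and 1782 as reported). Over all genes 8017 were then called in IL13KO coculture minus monoculture, in place of 9384. Under that setting 5 single values reversed: Ubtf (-0.022) and Noc2l (-0.376) in WT coculture minus monoculture, and Ubtf (-0.31), Nolc1 (-0.098) and Noc4l (-0.179) in IL13KO coculture minus monoculture. Upper-quartile scaling gave the members a median of 0.3 in IL13KO coculture minus monoculture and a sum of 1781 CPM in monoculture. The cause of these shifts was not tested. Column numbers did not pair the libraries: over 8 same-numbered pairs the correlation of deviations was -0.126 to 0.028, and 1 of 10 libraries was closest to its own number. With the number as a replicate block, 13 members (22 as reported) were called in WT minus IL13KO coculture, where 2124 of all genes were called in place of 3810. Leaving out 1 library at a time gave members called of 24 to 26 (WT minus monoculture), 21 to 26 (IL13KO minus monoculture) and 15 to 24 (WT minus IL13KO), and the median of WT minus monoculture moved between 0.739 (without WT coculture 4) and 0.955 (without WT coculture 1). Over all genes the calls in these runs numbered 9047 to 10468, 7948 to 9726 and 2360 to 4805. Of the members' calls, 21 of 26, 11 of 24 and 13 of 22 were kept in all alternatives run. Kept calls were not counted over all genes, so these counts have no share to be set against. Between the cocultures Ncl and Fbl lost their call only under the replicate block. At 0.136 to 0.280 CPM, the limit of 3 counts was below each member's level.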
